A study of Homo sapiens with 10 samples.

Results

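The 36 genes described here encode subunits and activators of the proteasome, the protease that breaks down proteins tagged with ubiquitin. They are a list of gene symbols that was matched through GENCODE to the Ensembl identifiers of the count files, and all 36 were found among the 63677 identifiers. The list holds 7 alpha and 8 beta subunits of the core particle, 6 ATPases of the base and 11 other subunits of the regulatory particle, and 4 activators. The beta subunit PSMB3 matched no identifier and is not among the 36. RS4;11 is an established line of B-precursor leukemia with a KMT2A::AFF1 fusion, and venetoclax (VEN) is an inhibitor of BCL-2. In the study, 5 VENins lines were grown from it under VEN that was raised over 8 months to 100 nM, beside 5 VENsens lines kept in DMSO. Poly(A) RNA of every line was sequenced as 1 library, and VEN had been washed out before the cells were analyzed. All 10 lines descend from 1 parental line, so that replicates are lines grown apart. In such bulk RNA, fewer cells of a state and less RNA per cell cannot be told apart. The libraries held between 38491516 and 52960365 reads, of which between 20631907 and 28323643 were counted on genes. Levels are given as CPM, counts relative to the library total after TMM scaling in edgeR. Differences are log2 fold changes of VENins against VENsens lines from edgeR's quasi-likelihood test, in which lines of the same number formed a pair.

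The proteasome is a barrel of stacked rings, with outer rings of alpha subunits that form the gate and inner rings of beta subunits that hold the proteolytic sites. A regulatory particle caps the barrel, and its base ATPases unfold substrates while its other subunits bind and remove ubiquitin. In blood cancers the complex is the target of inhibitors such as bortezomib, and it degrades short-lived regulators of cell death, among them MCL-1.

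The libraries carried the markers of the labelled cell type. Summed over 8 B-cell precursor genes the level was between 2631 and 2987 CPM, with PAX5 as the most abundant gene, and summed over 5 genes of KMT2A-rearranged leukemia it was between 1019 and 1128 CPM. The 5 T-cell genes together reached 1.08 CPM at most and the 4 erythroid genes 0.0484 CPM, while the 7 myeloid genes, led by CSF1R, and the 4 fibroblast genes, led by PDGFRB, reached 18.2 and 19.04 CPM. The 8 B-cell precursor genes had no common direction, with 4 higher and 4 lower in VENins lines. At an unadjusted p under 0.05, 2 were higher and 2 lower (7.79% and 8.38% of all tested genes). PAX5 fell (log2 fold change -0.31, adjusted p = 0.0272 in edgeR's quasi-likelihood test). Of the 8, 1 more gene was lower in all 5 pairs without overlap of the groups, with an adjusted p of 0.163 in the same edgeR test. Separate groups with lower VENins values were found for 2.3% of all tested genes. S100A8, S100A9 and DCN were listed at 0 in all libraries.

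Proteasome genes stood slightly higher in VENins lines, as a broad shift of small size in which no single gene passed the test. Of the 36 genes, 35 passed the filter on low counts and were among the 16756 genes tested, and PSMB8 was listed at 0 in all libraries. The log2 fold change was above 0 for 32 of the 35, against 51.1% of all tested genes and 48.8% of protein-coding ones, and its median was 0.10, against 0.0035 over all tested genes. The values ran from -0.03 to 0.21 with standard errors between 0.05 and 0.12. None of the 35 had an adjusted p under 0.05 in edgeR's quasi-likelihood test (lowest adjusted p = 0.12), against 0.197% of all tested genes, 0.0358% for higher levels in VENins lines alone, and 0.243% of protein-coding genes. An unadjusted p under 0.05 was found for 12 members, all of them higher in VENins lines, which is 34.3% of those tested against 7.79% of all tested genes and 7.88% of protein-coding ones. At the same p none was lower, against 8.38% of all tested genes. DESeq2 called 0 members with the line number in the model, where 11 had an unadjusted p under 0.05 and were higher, against 5.65% of all tested genes. Without the line number it called 739 of the 16756 genes, 358 of them higher in VENins lines, and 8 of these were members, namely PSMA5, PSMA7, PSMB1, PSMB6, PSMB7, PSMD6, PSMD14 and PSME1. In this fit 4550 of the 16756 genes received no adjusted p and could not be called.

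The same shift can be followed library by library. Summed over the 35 genes, the level was 3104, 2876, 3175, 3065 and 3119 CPM in VENsens lines 1 to 5 and 3292, 3388, 3298, 3256 and 3242 CPM in VENins lines 1 to 5. All VENins lines lay above all VENsens lines, with the lowest value in VENsens line 2 and the highest in VENins line 2. Relative to the mean of the 10 libraries, the median of the 35 genes was -0.03, -0.15, -0.00202, -0.06 and -0.05 on the log2 scale in the VENsens lines and 0.05, 0.11, 0.04, 0.04 and 0.03 in the VENins lines. Of the 35 genes, 5 were above their mean in VENsens line 2 and 31 in VENins line 2. Within pairs of the same number, 26, 34, 23, 29 and 20 genes were higher in the VENins line of pairs 1 to 5, with median differences of 0.09, 0.26, 0.04, 0.10 and 0.07. The size of the shift rested partly on pair 2. Without this pair the median was 0.07, and 5 members instead of 12 had an unadjusted p under 0.05, against 3.98% of all tested genes. In a fit without pairs that left out VENsens line 2 alone, chosen after seeing the data, the median was 0.07 and 10 members had an unadjusted p under 0.05 and were higher, against 7.64% of all tested genes. The VENins line was above the VENsens line in all 5 pairs for 11 members, or 31.4%, against 7.61% of all tested genes and 7.29% of protein-coding ones, and below it in all 5 pairs for 0 members, against 6.66% of all tested genes. For 6 members (PSMA7, PSMB1, PSMB6, PSMB7, PSMD14 and PSME1), or 17.1%, the groups did not overlap, against 2.36% of all tested genes and 2.5% of protein-coding ones, and this count was 10 without pair 3, where the share of all tested genes was 4.66%. No member had separate groups with lower VENins values, against 2.3% of all tested genes. Proliferation genes lay on the same side. Of 16 such genes 13 were higher in VENins lines, with a median log2 fold change of 0.09, 7 higher and 1 lower at an unadjusted p under 0.05 (7.79% and 8.38% of all tested genes), and summed levels, led by MKI67, of 4512, 4609, 4884, 4982 and 4965 CPM in the VENsens and 4998, 4717, 5164, 4852 and 5069 CPM in the VENins lines. On the same relative scale their median was -0.25 and -0.14 in VENsens lines 1 and 2, while VENsens lines 3 to 5, at 0.01 to 0.03, lay close to the VENins lines, at 0.03 to 0.09. Their part in the difference was not tested. By dilution of a dye in growing cells, the study found proliferation of the VENins lines unchanged against the controls, which is a measure other than RNA.

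**Figure D1:**
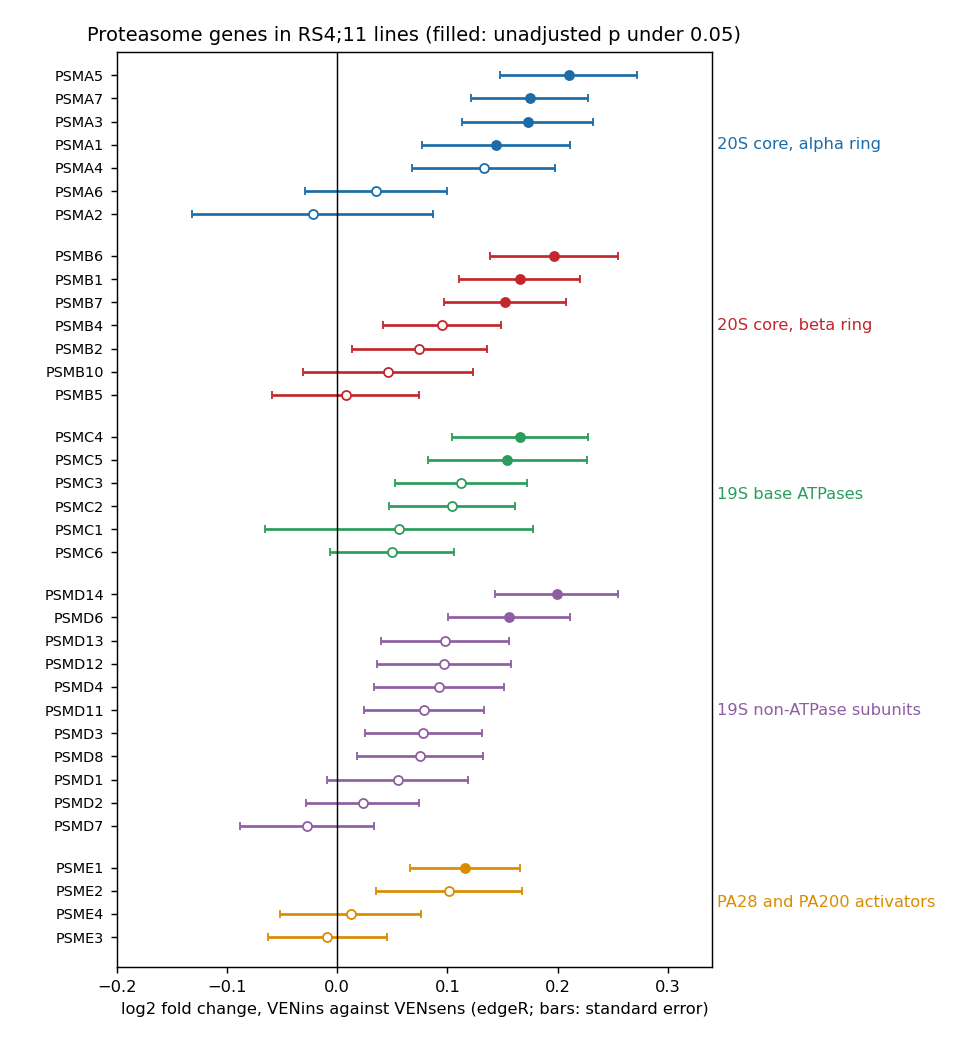
Log2 fold change of VENins against VENsens lines (horizontal axis, edgeR, bars for the standard error) of the 35 tested proteasome genes, grouped by role, with filled points for the 12 genes with an unadjusted p under 0.05. Points lie right of 0 for 32 genes, and none had an adjusted p under 0.05.

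**Figure D2:**
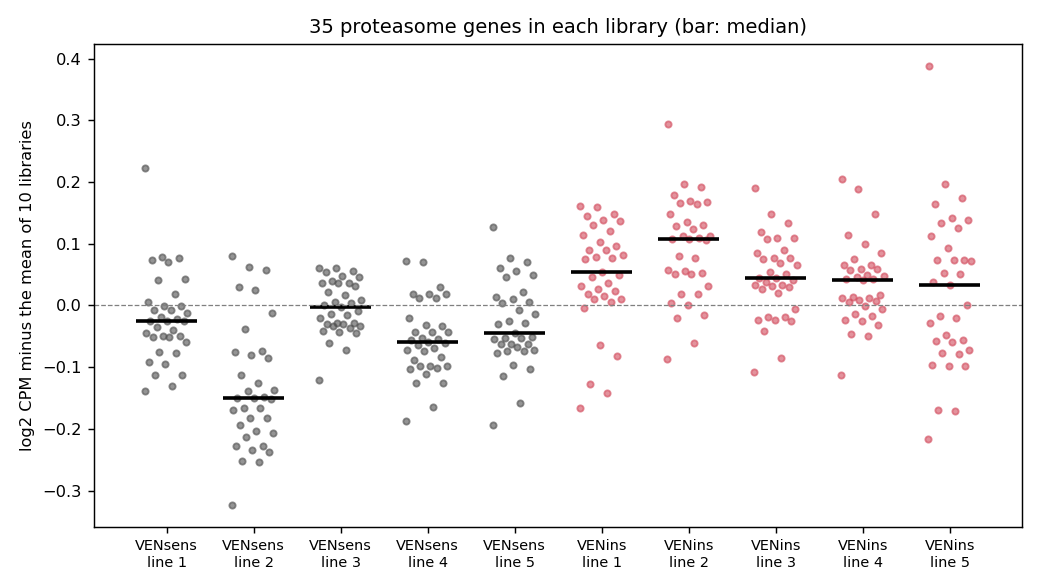
Log2 CPM of each of the 35 tested genes minus its mean over the 10 libraries (vertical axis) in each library, with a bar at the median. The median is lowest in VENsens line 2 at -0.15 and highest in VENins line 2 at 0.11, and it is below 0 in the 5 VENsens and above 0 in the 5 VENins lines.

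Promoters of the genes were searched for 4 short motifs on both strands. RefSeq promoter windows, from 250 bases before to 50 bases after the start on GRCh38.p14, were found for 31 of the 36 genes. The core of the antioxidant response element, TGACNNNGC, which is bound by NFE2L1 and NFE2L2 with small MAF proteins, was present in 7 of the 31 windows (PSMC4, PSMD1, PSMD3, PSMD12, PSME1, PSME2 and PSME4), against 13.6% of 27305 promoters. CCAAT was present in 14 of them, against 35.7%, and the GC box GGGCGG in 21, against 44.6%. The core of the interferon-stimulated element, a pair of GAAA runs spaced by 2 bases, was present in 5 (PSMA4, PSMB4, PSMB10, PSME1 and PSME2), against 3.65%. PSMA7, PSMB1, PSMB6, PSMB7 and PSMD4 had no window in the table. A match describes the letters only, and binding was not measured. Shown 5′ to 3′ on the strand of the gene are the windows of the 4 genes with the smallest p in their groups (PSMA5, PSMC4, PSMD14 and PSME1) and those of PSMB5 and PSMB10, a constitutive and an inducible catalytic subunit with little difference between the groups. Capitals mark TGACNNNGC, CCAAT and the spaced GAAA pair or their reverse complements, GGGCGG is left in lower case, and no match of one of these motifs overlapped one of another. The windows are chr1:109426399-109426698 (minus strand) for PSMA5, chr19:39970915-39971214 (plus strand) for PSMC4, chr2:161308175-161308474 (plus strand) for PSMD14, chr14:24135944-24136243 (plus strand) for PSME1, chr14:23035171-23035470 (minus strand) for PSMB5 and chr16:67936801-67937100 (minus strand) for PSMB10.
PSMA5: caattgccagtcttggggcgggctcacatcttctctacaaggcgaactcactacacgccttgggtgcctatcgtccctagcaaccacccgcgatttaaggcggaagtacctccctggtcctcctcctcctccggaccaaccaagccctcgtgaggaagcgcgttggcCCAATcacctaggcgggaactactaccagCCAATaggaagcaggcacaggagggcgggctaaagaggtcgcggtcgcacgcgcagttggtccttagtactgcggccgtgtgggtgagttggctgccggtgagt
PSMC4: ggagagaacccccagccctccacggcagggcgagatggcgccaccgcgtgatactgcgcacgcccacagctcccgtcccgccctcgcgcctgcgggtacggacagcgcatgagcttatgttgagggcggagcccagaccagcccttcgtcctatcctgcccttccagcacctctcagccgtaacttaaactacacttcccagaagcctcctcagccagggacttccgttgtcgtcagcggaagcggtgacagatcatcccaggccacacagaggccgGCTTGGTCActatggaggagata
PSMD14: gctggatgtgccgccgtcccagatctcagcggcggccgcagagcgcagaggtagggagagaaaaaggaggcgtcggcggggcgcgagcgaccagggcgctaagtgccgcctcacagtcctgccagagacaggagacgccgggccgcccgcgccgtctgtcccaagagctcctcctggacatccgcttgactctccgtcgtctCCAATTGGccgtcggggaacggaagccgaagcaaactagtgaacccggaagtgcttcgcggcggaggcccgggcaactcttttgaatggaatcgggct
PSME1: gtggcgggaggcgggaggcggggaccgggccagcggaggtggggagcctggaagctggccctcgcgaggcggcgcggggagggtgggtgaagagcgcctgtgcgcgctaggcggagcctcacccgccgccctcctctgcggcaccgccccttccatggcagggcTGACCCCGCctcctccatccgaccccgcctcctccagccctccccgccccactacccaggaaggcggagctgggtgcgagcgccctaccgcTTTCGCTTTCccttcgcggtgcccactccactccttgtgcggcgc
PSMB5: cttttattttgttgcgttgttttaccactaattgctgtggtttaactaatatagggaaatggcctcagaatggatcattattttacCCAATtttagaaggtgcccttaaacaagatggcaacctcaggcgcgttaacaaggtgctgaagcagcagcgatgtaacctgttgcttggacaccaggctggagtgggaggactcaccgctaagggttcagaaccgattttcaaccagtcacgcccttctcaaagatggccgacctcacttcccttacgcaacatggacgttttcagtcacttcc
PSMB10: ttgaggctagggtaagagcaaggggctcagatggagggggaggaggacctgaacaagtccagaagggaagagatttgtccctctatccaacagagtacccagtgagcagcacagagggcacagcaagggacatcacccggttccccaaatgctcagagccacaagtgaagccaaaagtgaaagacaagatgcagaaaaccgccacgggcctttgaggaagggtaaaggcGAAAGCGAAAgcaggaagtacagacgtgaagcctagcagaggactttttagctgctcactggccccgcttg
PSMA5 holds CCAAT at 83 and 54 bases before the start, and PSMD14 holds it on both strands, at 48 and 45 bases before the start, in 1 continuous run. In PSMB5 it lies 164 bases before the start. The TGACNNNGC match of PSMC4 lies 28 bases after the start on the opposite strand, and that of PSME1 lies 86 bases before the start. GAAAGCGAAA was found 21 bases before the start of PSMB10 and, on the opposite strand, 6 bases after that of PSME1.

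Among the alpha subunits of the core, 6 of 7 were higher in VENins lines, with a median log2 fold change of 0.14 (0.09 without pair 2). An unadjusted p under 0.05 with higher levels was found for 4 of them, against 7.79% of all tested genes. PSMA5 (ENSG00000143106, chromosome 1), an alpha ring subunit whose promoter window is printed above, was at 60.2, 52.1, 64.5, 56.9 and 55.6 CPM in VENsens lines 1 to 5 and at 68.0, 71.0, 67.0, 64.0 and 64.3 CPM in VENins lines 1 to 5. It was higher in the VENins line of every pair, but VENsens line 3 reached the lower VENins values, so that the groups overlapped. Its log2 fold change of 0.21 (standard error 0.06) was the largest of the 35, with an adjusted p of 0.137 in edgeR's quasi-likelihood test. PSMA7 (chromosome 20), the alpha subunit whose groups did not overlap, was at 129.9 ± 5.78 and 147 ± 7.49 CPM (SD, n = 5 each) in VENsens and VENins lines. At the other end, PSMA2 (ENSG00000106588, chromosome 7) was at 5.03, 4.07, 4.79, 5.03 and 5.23 CPM in VENsens and 5.26, 4.495, 4.72, 4.68 and 4.62 CPM in VENins lines, with full overlap and a log2 fold change of -0.02 (standard error 0.11). This value is uncertain, since 3 processed pseudogenes named after PSMA2 held 6000 counts over the 10 libraries and the gene itself 1151. With the pseudogene counts added, the log2 fold change was 0.17. VENins line 5 had the lowest median of the VENins lines in this ring, at -0.08 relative to the mean of the 10 libraries, against 0.04 to 0.11 in VENins lines 1 to 4. Not every gene of the ring was low in it, since PSMA7 was higher in VENins line 5 than in any other library (7.31 log2 CPM).

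The 7 tested beta subunits, which are 6 constitutive ones without PSMB3 and the inducible PSMB10, were all higher in VENins lines, with a median of 0.09 (0.05 without pair 2). The groups did not overlap for 3 of them, PSMB1, PSMB6 and PSMB7, against 2.36% of all tested genes. PSMB6 (ENSG00000142507, chromosome 17), the catalytic subunit with caspase-like activity, was at 61.0, 53.4, 62.2, 59.4 and 61.2 CPM in the VENsens lines and at 68.3, 69.6, 67.1, 65.5 and 70.0 CPM in the VENins lines, each in the order of lines 1 to 5. All VENins values lay above all VENsens values, with VENsens line 2 lowest by a distance, and the log2 fold change was 0.20 (standard error 0.06, adjusted p = 0.133 in edgeR's quasi-likelihood test). PSMB7, the subunit with trypsin-like activity, was at 99.8 ± 3.99 and 111 ± 3.51 CPM, and PSMB1, which has no proteolytic site, at 161 ± 7.41 and 181 ± 7.74 CPM (SD, n = 5 each). PSMB5 (ENSG00000100804, chromosome 14), the subunit with chymotrypsin-like activity and the main site of bortezomib binding, gave another picture. It was at 61.1, 52.1, 60.1, 55.7 and 60.1 CPM in VENsens and at 52.4, 57.9, 59.1, 64.1 and 57.1 CPM in VENins lines, with the highest value in VENins line 4 and VENins line 1 close to the lowest. The groups overlapped throughout, 2 of 5 pairs were higher in the VENins line, and the log2 fold change was 0.01 (standard error 0.07), the lowest among the beta subunits. It was below 0 without pair 2 or pair 4 and with trends of transcript length and GC content removed, so that PSMB5 had no stable direction.

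In the immunoproteasome, interferon-inducible beta subunits take the place of the constitutive catalytic ones. PSMB8 (ENSG00000204264, chromosome 6), the inducible counterpart of PSMB5, and PSMB9 (ENSG00000240065), that of PSMB6, which is not among the 36, were listed at 0 in all 10 libraries. These zeros cannot be read as a lack of transcripts. Of the 40 protein-coding genes nearest PSMB8 on chromosome 6, 20 on each side, 32 were at 0 in all libraries, against 26.0% of the other 954 protein-coding genes of this chromosome. Genes of the same region that cells generally use were also at or near 0, among them RPS18 with 3 counts and TUBB with 1 count over the 10 libraries. PSMB10 (ENSG00000205220, chromosome 16), the inducible counterpart of PSMB7, could be measured, at 28.4, 27.2, 27.2, 29.2 and 28.9 CPM in VENsens and 26.2, 28.7, 26.5, 27.7 and 37.5 CPM in VENins lines 1 to 5. VENins line 5 was high and all other lines lay close together, with overlap between the groups. The log2 fold change was 0.05 (standard error 0.08, adjusted p = 0.825 in edgeR's test), and -0.04 without pair 5. The log2 ratio of PSMB10 to PSMB7, not corrected for gene length, was -1.86, -1.78, -1.92, -1.75 and -1.80 in VENsens lines and -2.03, -2.02, -2.06, -1.98 and -1.56 in VENins lines. VENins lines 1 to 4 lay below all VENsens lines, and VENins line 5 lay above them. The group means differed by -0.11 (two-sided exact permutation test, p = 0.31), and without pair 5 by -0.19 (p = 0.0286 in the same exact test, the smallest p that 4 lines against 4 allow). Pair 5 holds the line that lay apart, and leaving out any other pair gave p = 0.486 or 0.6 in this exact test. PSMB7 was itself higher in VENins lines without overlap, so that a lower ratio does not by itself show a lower level of PSMB10. Exons of PSMB10 share 34.8% of their bases with another annotated gene, so that its counts are less certain.

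All 6 ATPases of the base were higher in VENins lines, with a median of 0.11 (0.07 without pair 2), although the groups overlapped for every one of them. PSMC4 (ENSG00000013275, chromosome 19), the ATPase with the smallest p, was at 53.3, 45.3, 52.3, 48.9 and 52.4 CPM in VENsens lines 1 to 5 and 58.8, 58.4, 52.5, 53.6 and 59.8 CPM in VENins lines 1 to 5. Each VENins line was above the VENsens line of its number, though VENins line 3 by little, and VENsens line 1 reached the lower VENins values. The log2 fold change was 0.17 (standard error 0.06, adjusted p = 0.205 in edgeR's quasi-likelihood test). For PSMC6 (ENSG00000100519, chromosome 14), the ATPase with the lowest value, the levels were 43.4, 45.9, 45.4, 40.7 and 40.9 CPM in VENsens and 45.7, 46.4, 46.7, 44.1 and 41.1 CPM in VENins lines. The VENins line was higher in all 5 pairs while the groups overlapped widely, and the log2 fold change of 0.05 was smaller than its standard error of 0.06. PSMC1 (ENSG00000100764, chromosome 14) was at only 6.36, 5.67, 5.32, 4.77 and 4.75 CPM in VENsens and 4.84, 5.64, 5.61, 6.29 and 5.45 CPM in VENins lines, and the groups overlapped. Its log2 fold change was 0.06 (standard error 0.12), and 0.00630 with the counts of its pseudogenes added. Its level is uncertain on 2 grounds, since 13 pseudogenes named after it held 15681 counts against 1314 on the gene, and since 75.8% of its exon bases overlap NRDE2 on the opposite strand while the strand setting of the counting was not given in the sources used here.

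Of the 11 other subunits of the regulatory particle, 10 were higher in VENins lines, with a median of 0.08 (0.05 without pair 2). PSMD14 (ENSG00000115233, chromosome 2), the metalloprotease that cuts ubiquitin chains off the substrate, had the smallest p of all members. Its levels were 90.3, 87.9, 95.8, 92.2 and 95.3 CPM in VENsens and 106, 113, 107, 99.7 and 104 CPM in VENins lines 1 to 5. Every VENins line was above every VENsens line, and the log2 fold change was 0.20 (standard error 0.06, unadjusted p = 0.00296, adjusted p = 0.12 in edgeR's quasi-likelihood test). PSMD7 (ENSG00000103035, chromosome 16), which forms a dimer with PSMD14 in the particle, did not share this difference. It was at 74.5, 76.5, 77.3, 73.6 and 77.8 CPM in VENsens and 79.4, 78.0, 76.9, 74.3 and 64.7 CPM in VENins lines, with VENins line 5 lowest and the others close together, and its log2 fold change was -0.03 (standard error 0.06). Pseudogene counts equal to 8.57% of its own counts and an overlap of 30.7% of its exon bases with a gene on the opposite strand limit this value, which was 0.03 without pair 5. PSMD6 was the other subunit of this group with an unadjusted p under 0.05, at a log2 fold change of 0.16.

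The 4 activators split into those of PA28 that interferon induces, PSME1 and PSME2, and the nuclear PA28 subunit PSME3 with PSME4, which encodes PA200. Their median log2 fold change was 0.06, and 0.03 without pair 2. PSME1 (ENSG00000092010, chromosome 14) was at 157, 154, 159, 157 and 154 CPM in VENsens and 164, 175, 171, 169 and 167 CPM in VENins lines 1 to 5. The groups did not overlap and VENsens lines varied little, at 156 ± 2.07 CPM (SD, n = 5), but the log2 fold change was no more than 0.12 (standard error 0.05, adjusted p = 0.273 in edgeR's quasi-likelihood test). PSME2, its partner in the ring, had a log2 fold change of 0.10 with overlapping groups. PSME3 (ENSG00000131467, chromosome 17) was at 138, 134, 148, 143 and 148 CPM in VENsens and 149, 135, 139, 145 and 136 CPM in VENins lines, with overlap throughout and a log2 fold change of -0.01 (standard error 0.05). PSME4 had a log2 fold change of 0.01. The windows of both PSME1 and PSME2 hold the antioxidant and the interferon motif, and those of PSMA4, PSMB10 and PSMB4, the last with a log2 fold change of 0.09, hold the interferon motif as well.

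**Figure D3:**
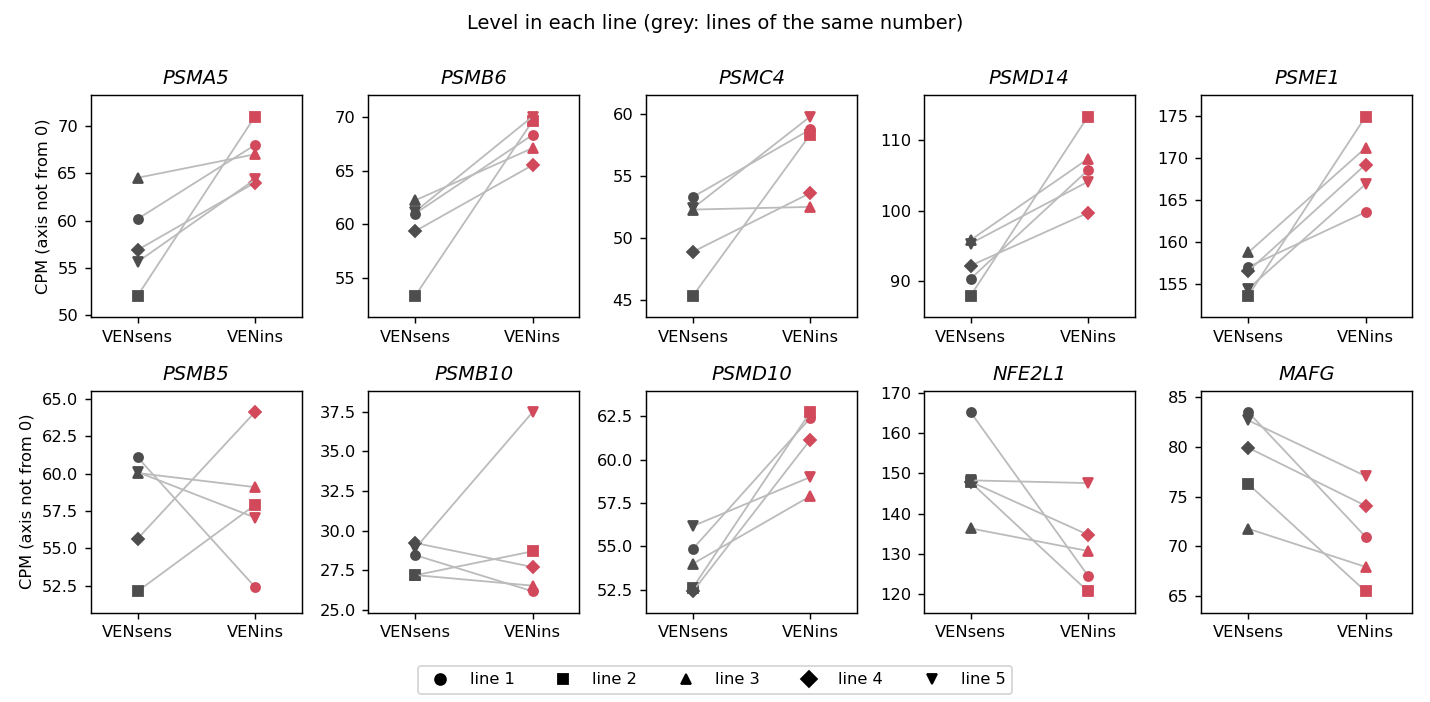
Level in CPM (vertical axes, which do not start at 0) in each VENsens (grey) and VENins line (red) of 7 proteasome genes, the chaperone gene PSMD10 and the regulators NFE2L1 and MAFG, with symbols for the line number and grey lines joining lines of the same number. Values of PSMB6, PSMD14, PSME1 and PSMD10 do not overlap between the groups, PSMB5 has no common direction, PSMB10 is high in VENins line 5, and NFE2L1 and MAFG are lower in the VENins line of all 5 pairs.

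Levels of the genes relative to each other were compared as CPM per kb of exon, averaged over the 10 libraries. The median of the 35 measured genes was 22.4 CPM per kb. PSME1 was highest at 91.3 CPM per kb, followed by PSMB4 at 82.2, PSMA7 at 79.0 and PSMB1 at 75.9. The standard deviations over lines, at most 4.28 CPM per kb for these 4 genes, leave the order of PSMB4, PSMA7 and PSMB1 uncertain. By group, the median level was 44.0 CPM per kb for the beta subunits, 20.9 for the non-ATPase subunits of the regulatory particle, 20.4 for the activators, 19.7 for the ATPases and 16.6 for the alpha subunits. PSMC1 at 0.888 and PSMA2 at 0.898 CPM per kb were lowest among the genes with counts, and PSMA6 followed at 5.53. Subunits of 1 complex thus differed widely in their counts, but for these 3 genes most counts that bear their name stood on pseudogenes. Counts on pseudogenes made up 92.3% of the sum of gene and pseudogenes for PSMC1, 83.9% for PSMA2 and 82.8% for PSMA6, and 39.2% for PSME2. With them added, the levels were 11.5, 5.58, 32.1 and 22.0 CPM per kb. Low values of these 4 genes can therefore not be told apart from reads that were placed on a near-identical copy. When the longest transcript replaced the union of exons, PSME1 remained highest at 143.2 CPM per kb and the median was 36.4 CPM per kb, but the places below it changed, with PSMA7 next at 135.2, PSMB7 at 107.5, PSMB1 at 88.3 and PSMB4 at 85.9. The order of the groups also changed below the beta subunits (73.2 CPM per kb), with 39.6 for the alpha subunits, 36.4 for the non-ATPase subunits, 30.1 for the ATPases and 29.7 for the activators.

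**Figure D4:**
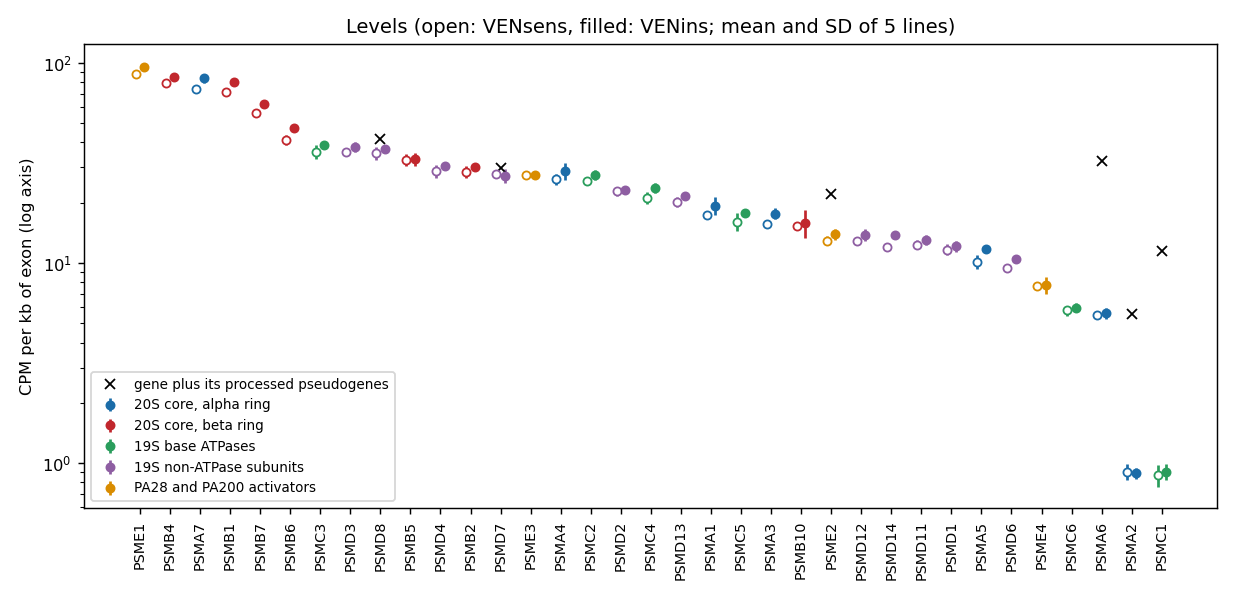
Level of the 35 measured genes in CPM per kb of exon (vertical log axis), ordered from highest to lowest and colored by group, with open points for the mean of 5 VENsens and filled points for that of 5 VENins lines, bars for the SD and crosses for the gene plus its processed pseudogenes. PSMA2 and PSMC1 lie near 0.9 CPM per kb without and at 5.58 and 11.5 with the pseudogene counts.

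The genes also differed in how far they followed the rest of the complex. The median correlation of log2 CPM between 2 members was 0.41 across the 10 libraries, and 81.7% of 595 pairs of genes had a value above 0. For deviations from the group means, which leave out the difference between VENins and VENsens lines, the median was 0.304. These values are descriptions over 10 libraries whose normalization the genes share, and no value for other genes stands beside them. The correlation with the mean of all other members was highest for PSMB7 (r = 0.955), PSMA5 (0.949), PSMB6 (0.946) and PSMB1 (0.939), all of them parts of the core particle. These correlations include the difference between VENins and VENsens lines, and the groups did not overlap for PSMB7, PSMB6 and PSMB1. Over all 10 libraries the correlation was near 0 for PSMB10 (-0.0125), PSMD7 (-0.00259), PSME4 (0.0332), PSMC1 (0.0453) and PSMA6 (0.0481). The value of PSMD7 depended on VENins line 5 and was 0.3446 without this library. That of PSME4 was 0.368 without VENsens line 2 and -0.234 without VENins line 2. Omitting 1 library at a time gave -0.153 to 0.225 for PSMA6, -0.0871 to 0.225 for PSMC1 and -0.208 to 0.0833 for PSMB10. PSMB5 was at 0.314, lower than PSMB6 and PSMB7, which sit in the same ring. Its value depended on single libraries, from -0.154 without VENsens line 2 to 0.575 without VENins line 1. With any 1 library left out, PSMB7, PSMA5, PSMB6 and PSMB1 stayed at 0.885 or above.

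Genes that assemble, control and supply the proteasome were read from the same fit, and none of them had an adjusted p under 0.05 in it. Of 9 assembly chaperones, 8 were higher in VENins lines, with a median log2 fold change of 0.13. An unadjusted p under 0.05 with higher levels was found for 3 of the 9 (7.79% of all tested genes) and groups without overlap for 2 of them (2.36% of all tested genes). PSMD10, which helps to build the base, was at 54.0 ± 1.57 and 60.6 ± 2.12 CPM, and PSMG1, a chaperone of the alpha ring, at 96.3 ± 4.64 and 108 ± 3.38 CPM (SD, n = 5 each). The groups did not overlap for either, at log2 fold changes of 0.17 and 0.16 (adjusted p = 0.177 and 0.18 in edgeR's quasi-likelihood test). DESeq2 without the line number called both (adjusted p = 0.0192 and 0.0246 after BH adjustment). POMP, which matures the beta ring, was at 92.0 ± 8.65 and 99.2 ± 9.93 CPM with overlapping groups and a log2 fold change of 0.11, which was 0.03 without pair 2 and 0.20 without pair 5.

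NFE2L1 encodes NRF1, the factor that raises proteasome genes when the protease is inhibited, and it was at 165, 148, 136, 148 and 148 CPM in VENsens lines 1 to 5 and at 125, 121, 131, 135 and 148 CPM in VENins lines 1 to 5. The VENins line was lower in all 5 pairs, by little in pair 5, and the groups overlapped. The log2 fold change was -0.18 (standard error 0.06, unadjusted p = 0.012, adjusted p = 0.183 in edgeR's quasi-likelihood test). With each pair left out it was between -0.22 (without pair 5) and -0.12 (without pair 1). Unadjusted p in the same edgeR test was 0.0663 without pair 1 and 0.0539 without pair 2. With trends of transcript length and GC content removed, the log2 fold change was -0.12. MAFG, which encodes a small MAF partner of this factor, was at 78.8 ± 4.87 and 71.1 ± 4.66 CPM (SD, n = 5 each), lower in all 5 pairs, with a log2 fold change of -0.15, and of -0.09 (unadjusted p = 0.0576) with trends of transcript length and GC content removed. Of 10 genes that control proteasome transcription, 4 were higher and 6 lower, with a median of -0.09 and 2 at an unadjusted p under 0.05, both lower, as were 8.38% of all tested genes. The protein level and activity of NRF1, which is set by cleavage through DDI2 (log2 fold change -0.13), were not measured in these libraries.

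Of 11 further subunits and partners, 7 could be tested and 5 were higher. The ubiquitin receptor gene ADRM1 was at 47.3, 38.2, 46.5, 47.2 and 46.3 CPM in VENsens and 53.4, 50.4, 52.5, 46.4 and 58.4 CPM in VENins lines, where VENsens line 2 was lowest and VENins line 4 lay among the VENsens lines, with a log2 fold change of 0.21 (adjusted p = 0.15 in edgeR's quasi-likelihood test). SEM1, a small subunit of the regulatory particle, had a log2 fold change of 0.16, higher in all 5 pairs, and of 0.09 without pair 2. PSMF1, which encodes the proteasome inhibitor PI31, was at 115 ± 2.81 and 119.6 ± 7.81 CPM (SD, n = 5 each), which gives 0.06 as log2 fold change and 0.02 without pair 3. Among 16 tested genes that supply or deliver ubiquitin, 12 were higher with a median of 0.05. In this list UFD1, a partner of the unfoldase VCP, had a log2 fold change of 0.17, and of 0.11 without pair 2. Of 9 tested genes that induce the immunoproteasome or act beside it, 5 were higher with a median of 0.03. IRF1, a transcription factor for inducible subunit genes, was at 89.0 ± 4.99 and 98.7 ± 6.75 CPM (SD, n = 5 each) and higher in all 5 pairs (log2 fold change 0.15, adjusted p = 0.205 in edgeR's quasi-likelihood test). IFNGR1, a chain of the interferon gamma receptor, had a log2 fold change of 0.11.

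**Figure D5:**
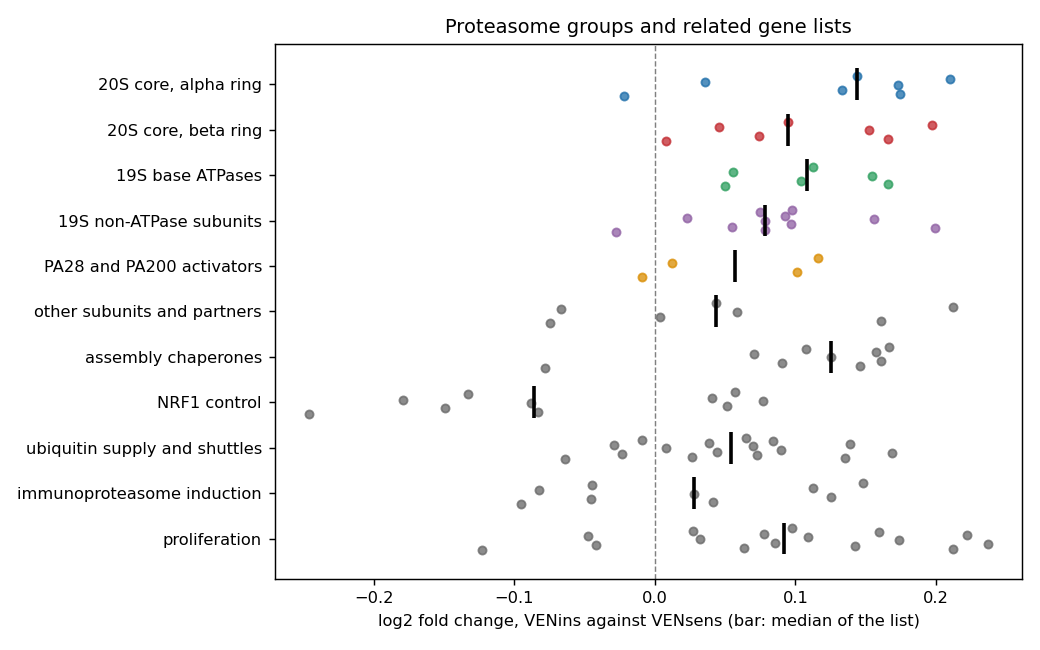
Log2 fold change of VENins against VENsens lines (horizontal axis) of single genes in the 5 proteasome groups (colored) and in 6 related lists (grey), with a bar at the median of each list. The medians of the 5 proteasome groups lie between 0.06 and 0.14, that of the assembly chaperones at 0.13, that of the proliferation genes at 0.09 and that of the NRF1 control list at -0.09.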

How the data were processed

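RNA-Seq libraries of 5 VENsens and 5 VENins RS4;11 lines were used. The authors deposited raw counts of reads per Ensembl gene, and the submitters' processing notes name bcl2fastq 2.20.0.422, Bowtie2 2.3.5.1, SAMtools 1.9 and HTSeq 0.9.1 with the builds hg19 and GRCh37. Bowtie2 aligns without splitting reads across introns. Annotation and strand setting were not given in the sources used here. Of the reads, 52.7% to 54.2% were counted on genes, 9.39% to 10.2% were not aligned, 24.6% to 26.2% aligned with low quality, 7.29% to 7.78% lay outside genes and 3.69% to 3.98% were ambiguous, and these reads entered no total. Names, exon lengths and neighbours came from GENCODE 29 by identifier, which named 52526 of the identifiers, and promoter sequences from RefSeq.

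Counts were analyzed in R 4.3.3 with edgeR 4.0.16 (filterByExpr with a minimum count of 10 and a minimum total of 15, TMM, quasi-likelihood F test with line number and condition). Benjamini-Hochberg adjustment covered the 16756 tested genes, with a threshold of 0.05. The line number was in the model because the study's methods describe a paired analysis. Log2 CPM used a prior count of 2. The ratio of PSMB10 to PSMB7, the only 1 of 3 planned ratios that could be computed, was compared with an exact permutation test. Python 3.11.15 with scipy 1.17.1, pandas 2.3.3, numpy 2.4.6 and matplotlib 3.10.9 was used for ratios, motifs and plots. The steps were tested on simulated data.

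The members and lists were chosen with earlier results of these data known. Values per library were given for the member with the smallest p and the member with the lowest log2 fold change in each group, for PSMB5, PSMB8, PSMB9 and PSMB10, and for the highest and lowest member by level per exon length. Of each other list 1 or 2 of the 2 genes with the smallest p were named, with POMP, NFE2L1 and PSMF1. PSMA7, PSMB1, PSMB7, PSMD6, PSME2, PSME4, PSMB4, PSMA6 and DDI2 were added after their values were seen. The alternatives were no line number in the model, DESeq2 1.42.0 with and without it, RLE size factors, library size alone, no filter, at least 10 counts in every library, trends of transcript length and GC content removed (natural splines with 4 degrees of freedom), pseudogene counts added, and omission of pairs 1 to 5 one at a time.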

Additional observations from a re-analysis of the deposited data

Results flagged for a closer look

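The groups of 5 lines of each named gene, of the medians over members and of the ratio, 62 groups in all, were searched for a line far from the others, measured as its gap to the nearest line divided by the range of the group, for genes on the log2 CPM scale. There were 5 such groups, and chance gives about 1 in 20 groups, or 3.1 here. PSMB10 in VENins line 5, at 37.5 CPM, lay above the other VENins lines (gap over range 0.744), and so did the log2 ratio of PSMB10 to PSMB7 in this line (0.838). ADRM1 in VENsens line 2, at 38.2 CPM, lay below the other VENsens lines (0.895). The median of the non-ATPase subunits of the regulatory particle was low in VENsens line 2 (0.736), and the median of the 35 members was high in VENins line 2 (0.72). The reasons were not tested.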

How the results depend on the processing

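The line numbers did not pair the libraries by the data. Deviations from the group means of VENins and VENsens lines of the same number correlated at -0.103, 0.028, -0.017, 0.00937 and -0.0799. Without the line number as a block, edgeR called 149 genes in place of 33 and 0 members, with 14 members higher at an unadjusted p under 0.05 (9.22% of all tested genes) and a median log2 fold change of 0.10. DESeq2 called 217 genes with the block and 739 without it, of which 8 were members. It gave no adjusted p to 3899 genes with the block and to 4550 without it. No filter on low counts gave 664 genes. Removing trends of transcript length and GC content gave 142 genes with the block. Without the block, an alternative chosen after seeing the data, it gave 365 genes, 3 members (PSMA7, PSMB6 and PSMD14) and 20 members higher at an unadjusted p under 0.05 (11.8% of all tested genes). The cause was not tested. The longest transcript had a median of 2754 bases over the members and 2912.5 bases over all tested genes.

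With each line pair left out in turn, 6 to 331 genes were called (6 without pair 2, 9 without pair 5, 17 without pair 3, 57 without pair 1 and 331 without pair 4), no member among them, 5 to 14 members were higher at an unadjusted p under 0.05 (3.98% to 8.04% of all tested genes), the median was between 0.07 and 0.12, 11 to 16 members were higher in all remaining pairs (9.3% to 12.8% of all tested genes), and 6 to 10 had groups that did not overlap (3.26% to 5.54% of all tested genes). The members' median stayed between 0.07 and 0.12 in all settings, with 30 to 34 members higher. The ratio of PSMB10 to PSMB7 differed by -0.194 to -0.0761, and its exact permutation p fell to 0.0286 without pair 5 only. Sign flips of the 5 pairs gave p = 0.375 in an exact test that cannot go below 0.0625. The ratios of PSMB8 to PSMB5 and of PSMB9 to PSMB6 gave no value, since both inducible genes were at 0.

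Single genes near 0 changed sign. PSMB5 had a log2 fold change of -0.0164 with length and GC trends removed (-0.0153 without the block), -0.0265 without VENsens line 2 and no block, and -0.0422 to 0.0642 with each pair left out. PSME3 was at 0.0142 and 0.0140 under the trend removal and at -0.0399 to 0.0183 with each pair left out. PSMA2 was at 0.175 with pseudogene counts added and at -0.0600 to 0.0175 with each pair left out, PSMD7 at -0.0571 to 0.0317, PSMB10 at -0.0388 to 0.0870 and PSMC1 at -0.0305 to 0.167. Of 384 values of 24 named genes under the alternatives, 359 kept their direction and their side of the threshold and 11 crossed it, among them IRF1 with trends removed (adjusted p = 0.0394 in edgeR's test with the block, 0.0373 without). DESeq2 without the block crossed it for PSMA5, PSMB6, PSMD14, PSME1, PSMD10 and PSMG1. With length and GC trends removed and the block kept, MAFG was at -0.0895, POMP at 0.0535, PSMF1 at 0.101, PSMC6 at 0.0286, PSMB10 at 0.00936, PSMC1 at 0.105 and PSMD7 at -0.0573.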
